A study of Mus musculus with 21 samples.

Results

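Microglia of the adult striatum were compared between offspring of control dams and offspring of dams whose immune system had been challenged in pregnancy (maternal immune activation, MIA), all given saline. The comparison took every library labelled as MIA and saline (5) or as control and saline (6), which is 11 of the 21 libraries of the series, and gives the state of the cells without a second challenge. All mice of these groups were males of 8 to 10 weeks, and the cells were collected 18 hours after saline injection. The cells were sorted as live, CD11b+, CD45-low and P2RY12+ from pooled striatal pieces of brains freed of their meninges. A sixth MIA saline library, titled excluded by the submitters, stayed out. Mice injected with lipopolysaccharide (LPS, a bacterial cell wall component, 4500 endotoxin units per gram) gave 5 control and 4 MIA libraries. These LPS libraries served to estimate the spread and as a yardstick, except that the MIA library of batch 2 added nothing to that spread. The labels used here do not name the agent given to the dams, its timing or the mouse strain. They give each library an ID but do not say that an ID is 1 mouse. The second number of the ID, whose meaning is not given, takes only 3 values in the 5 MIA libraries and 5 in the 6 control libraries. MIA replicates 1 and 2 share it, as do MIA replicates 3 and 4, and control replicates 3 and 4. Libraries that share it may not be independent. The p-values therefore measure only the spread between these libraries, which may be in part technical.

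Microglia are the resident macrophages of the brain. At rest they carry a signature kept by the growth factor receptor Csf1r, TGF-beta signalling and the transcription factor Sall1, and they sense damage and neuronal activity through purine receptors such as P2ry12. Bacterial products are sensed through Tlr4 and its co-receptor Cd14, which act through NF-kB on cytokine genes and on the inhibitors that end the response. The question posed by the saline groups is whether any of these programmes already differed before LPS.

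No gene passed the test between MIA and control offspring after saline. Levels of the resting signature, of LPS sensors and of NF-kB components lay close together in both groups, and for these genes the data exclude changes of 2-fold at the 95% level gene by gene. Of the 415 genes with an unadjusted p under 0.05, 256 had a mean log2 CPM under 3. Such a p was found for 2.07% of the 7686 genes with a mean of 3 or more, against 2.82% of all genes tested. With no difference at any gene, a share of about 0.05 would be expected, and both shares were below it. The 415 included genes of oligodendrocytes, neurons, neutrophils, red cells and macrophages of the brain borders.

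Levels are given as CPM, counts per 1e+06 counts of a library with its size scaled by the TMM method. Sums over marker lists are the exception and use CPM without that scaling. The quasi-likelihood test of edgeR compared the groups at 14741 genes that passed a filter on low counts. That filter used all 20 fitted libraries, so genes with few counts after saline could enter through the LPS libraries. Differences are log2 fold changes, MIA minus control, with the 95% interval of the fit for that gene alone. Of the 14741 genes, 0 (0%) had an adjusted p (Benjamini-Hochberg over all genes tested) under 0.05, and the smallest adjusted p was 0.698. An unadjusted p under 0.05 was found for 415 genes (2.82%), 204 higher and 211 lower in MIA. Of these, 256 had a mean log2 CPM under 3 and 159 a mean of 3 or more, where 7686 genes were tested. The mean was taken over the 20 fitted libraries, those after LPS included. DESeq2, run as an alternative without that filter, called 6 of 27221 genes. The fitted difference was above 0 for 7086 genes (48.1%), and its median over all genes was -0.01. All 5 MIA libraries lay above or below all 6 control libraries at 59 genes (0.4%), 26 higher and 33 lower in MIA.

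The libraries did not separate fully by maternal group. The typical log2 distance between a control and an MIA library (root mean square over the genes tested) had a median of 0.662 over 30 pairs. Within the control group it was 0.686 (15 pairs) and within the MIA group 0.647 (10 pairs). On the first principal component of the 11 libraries, with 17.2% of the variance, control libraries ran from -31.1 to 60.4 and MIA libraries from -24.8 to 15.8. Control replicate 5 lay alone at 60.4. On the second, with 14.4%, controls ran from -32.2 to 18.8 and MIA libraries from -9.92 to 46.1, the position of MIA replicate 2.

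Library quality overlapped between the groups. Total counts were 11.9 to 19.0 M (units of 1e+06) in control and 10.2 to 15.7 M in MIA libraries. A ribosomal RNA gene, CT010467.1, took 43.3% to 53.8% and 43.0% to 51.8% of the counts. Mitochondrially encoded genes took 2.57% to 4.63% in control and 4.00% to 5.56% in MIA libraries (two-sided exact permutation test over all divisions of the 11 libraries, p = 0.225, adjusted p = 0.450 over 4 such measures). The number of genes with a count was 18430 to 18986 and 18349 to 19559 (exact permutation p = 0.126, adjusted p = 0.450).

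The intervals give the sizes of difference that these data leave. The interval lay inside 2-fold in either direction for 10865 genes (73.7%) and inside 1.5-fold for 7158 (48.6%). Its median half-width was 0.45 on the log2 scale, or 1.36-fold. Precision followed the level of a gene. Where the mean log2 CPM was 3 or more (7686 genes), 98.0% had an interval inside 2-fold and 83.9% inside 1.5-fold. Between 0 and 2 the share inside 2-fold was 42.3%, and among 1614 genes under 0 it was 0.682%. For most genes with a mean log2 CPM under 2 the interval thus did not exclude a difference of 2-fold. By contrast, LPS against saline in control offspring, in the same fit, gave an adjusted p under 0.05 at 6580 genes (44.6%).

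**Figure D1:**
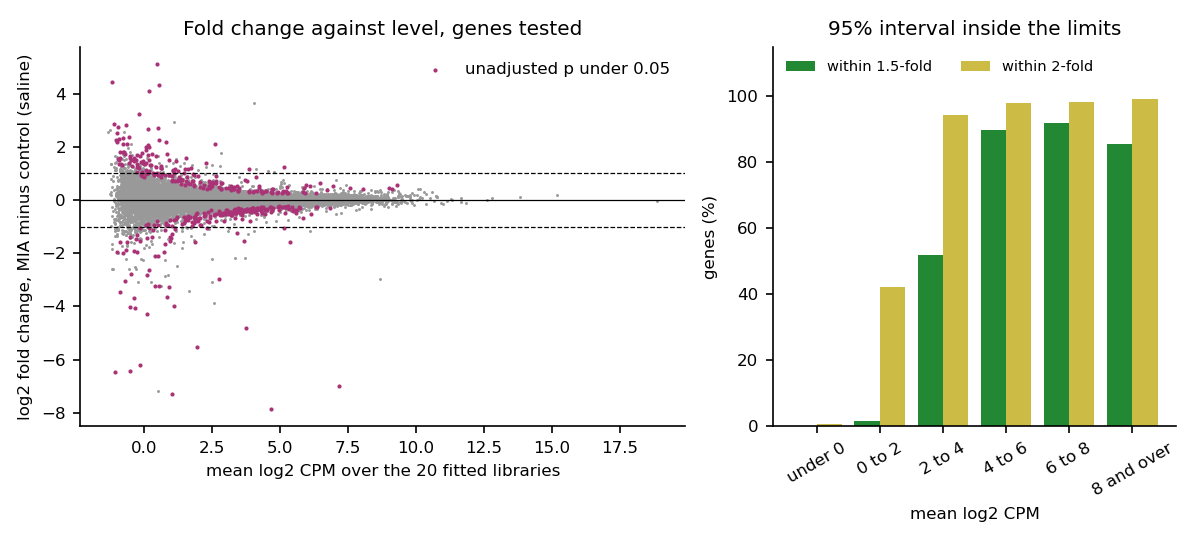
Left, log2 fold change of MIA against control after saline (vertical) against the mean log2 CPM over the 20 fitted libraries (horizontal), 1 point per gene, with the 415 genes of unadjusted p under 0.05 coloured and dashed lines at 2-fold. Right, the percent of genes whose 95% interval lies inside 1.5-fold or 2-fold, by mean log2 CPM: the share inside 2-fold climbs from 0.682% under 0 to 99.2% at 8 and over.

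Genes of the resting signature were at like levels in both groups. P2ry12, also a marker of the sort, ran from 1685 to 2259 CPM (median 1961) in controls and was at 2231, 2317, 1898, 2021 and 1783 CPM in MIA replicates 1 to 5. Its difference was 0.05 (interval -0.25 to 0.36). Tmem119, a surface protein used to mark microglia, ran from 595 to 946 CPM (median 662) in controls and was at 651, 649, 510, 603 and 619 CPM in MIA libraries. With a difference of -0.21 (-0.69 to 0.27) it was the lowest of the list. The highest was Gpr34, a lysophospholipid receptor, at 0.14 (-0.35 to 0.63). Both groups overlapped at each of these genes.

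The fractalkine receptor Cx3cr1, through which neurons restrain microglia, averaged 3651 ± 343 CPM (SD, n = 6) in controls and 3778 ± 338 (SD, n = 5) in MIA libraries, a difference of 0.05 (-0.53 to 0.63). Csf1r, the receptor on which microglia depend for survival, differed by -0.10 (-0.46 to 0.26). Sall1 was at 237 to 378 CPM (median 301) in controls and at 395, 344, 325, 318 and 289 CPM in MIA libraries, a difference of 0.12 (-0.19 to 0.44). Of the 26 resting-signature genes, 0 passed, 0 had an unadjusted p under 0.05, and 9 were above 0. Their median was -0.04, against -0.01 over all genes. All 26 intervals lay inside 2-fold, the outermost bounds being -0.69 and 0.63, and 21 lay inside 1.5-fold. The surface proteins used in the sort were also close: Itgam, which encodes CD11b, differed by 0.12 (-0.17 to 0.42), and Ptprc, which encodes CD45, by 0.06 (-0.23 to 0.34).

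Transcription factors of microglia gave a median of 0.09, with 18 of 24 above 0 and 0 passing. Spi1, which encodes the lineage factor PU.1, differed by 0.03 (-0.28 to 0.34) and Irf8 by 0.18 (-0.09 to 0.45). An unadjusted p under 0.05 was found for Jun and Klf4, both also genes induced by handling of cells. The list's highest member was the shear- and stress-responsive factor Klf2 at 0.64 (-0.07 to 1.34), and the lowest was Cebpb, a factor of inflammatory genes, at -0.43 (-1.19 to 0.34).

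**Figure D2:**
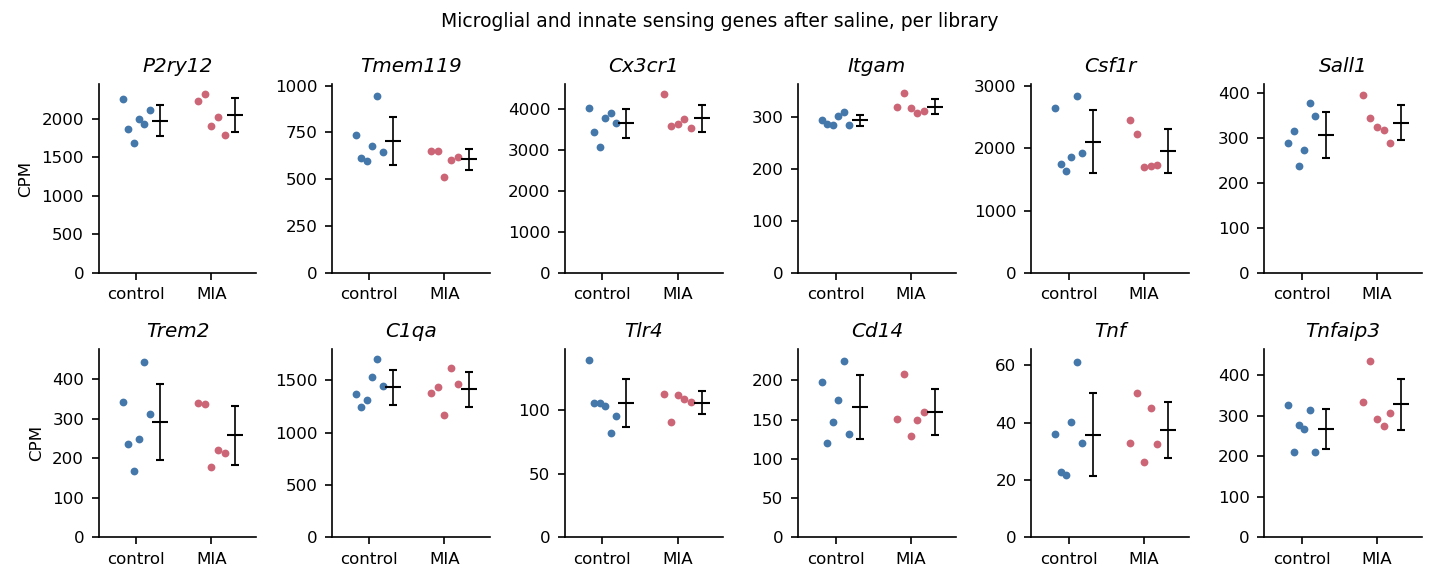
TMM-scaled CPM (vertical) of 12 microglial and innate sensing genes in each control (blue, n = 6) and MIA (red, n = 5) library after saline, with the mean and SD beside the points. The groups overlap at every gene shown; P2ry12 runs from 1685 to 2259 CPM in controls and from 1783 to 2317 in MIA libraries.

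LPS-sensing genes were likewise at like levels. Tlr4 ran from 82.0 to 139 CPM (median 104) in controls and was at 112, 90.6, 111, 108 and 106 CPM in MIA libraries, a difference of 0.01 (-0.27 to 0.29). Cd14 ran from 120 to 225 CPM (median 161) and was at 151, 208, 130, 150 and 159 CPM, a difference of -0.06 (-0.40 to 0.27). The adaptor Myd88 differed by 0.04 (-0.28 to 0.37). Of 30 TLR and NF-kB genes tested, 0 had an unadjusted p under 0.05 and 14 were above 0, with a median of -0.03. Every one of the 30 intervals lay inside 2-fold, between -0.55 and 0.67, and 28 inside 1.5-fold.

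Inhibitors that end the response included the 2 genes with an unadjusted p under 0.05 among 27 tested, Socs3 and Tnip3. Socs3, an inhibitor of cytokine receptor signalling, ran from 87.6 to 187 CPM (median 113) in controls and was at 137, 213, 152, 164 and 137 CPM in MIA libraries (0.40, 0.06 to 0.75, unadjusted p = 0.0249). Tnip3, a partner of A20, had few counts, with at most 0.154 CPM in controls and at most 0.6 CPM in MIA libraries. Between LPS and saline in control offspring Tnip3 differed by 5.14 ± 0.98 (SE) on the log2 scale. Tnfaip3, which encodes the NF-kB inhibitor A20, ran from 211 to 327 CPM (median 272) in controls and was at 333, 434, 290, 275 and 305 CPM in MIA libraries (0.29, -0.02 to 0.60). MIA replicates 1 and 2, which share the second ID number, were above all controls at Tnfaip3. The other 3 MIA libraries were within the control range. Nfkbia, the inhibitor that holds NF-kB in the cytoplasm, differed by 0.26 (-0.18 to 0.71), and Irak3, a brake on TLR signalling, by -0.16 (-0.74 to 0.42). Over the 27 genes the median was 0.03.

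Cytokine genes were measured with less precision. Tnf ran from 21.8 to 61.0 CPM (median 34.5) in controls and was at 32.9, 50.2, 26.3, 45.1 and 32.5 CPM in MIA libraries, a difference of 0.06 (-0.48 to 0.60). Il1b ran from 4.95 to 25.5 CPM (median 16.9) and was at 13.8, 18.8, 11.1, 14.1 and 13.7 CPM, a difference of -0.21 (-1.13 to 0.71), which leaves changes of 2-fold in the lower direction. The chemokines Ccl3 and Ccl4 differed by 0.22 (-0.30 to 0.74) and 0.05 (-0.42 to 0.52), and Ccl5, at 0.395 to 2.21 CPM in controls, by -0.51 (-1.90 to 0.88). Of 30 cytokine genes, 1 had an unadjusted p under 0.05 (Cxcl9), 14 were above 0 and 14 intervals lay inside 2-fold. The median was -0.08, and 0.00 with the 4 members that had 0 counts in a group set at their bounds.

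Interferon-stimulated genes varied between the libraries of both groups. The median of the list lay 0.57 and 0.35 above the control mean in control replicates 3 and 5 (log2 scale). In MIA replicate 5 it lay 0.61 above that mean. By summed level the highest libraries were control replicate 3, at 350 CPM, and MIA replicate 1, at 338 CPM. Of 31 tested, 0 had an unadjusted p under 0.05 and 19 were above 0. Their median was 0.09, and -0.04 without MIA replicate 5. Irf7, the factor that amplifies interferon production, differed by -0.04 (-0.68 to 0.60) and Ifitm3, an antiviral membrane protein, by 0.31 (-0.41 to 1.02).

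**Figure D3:**
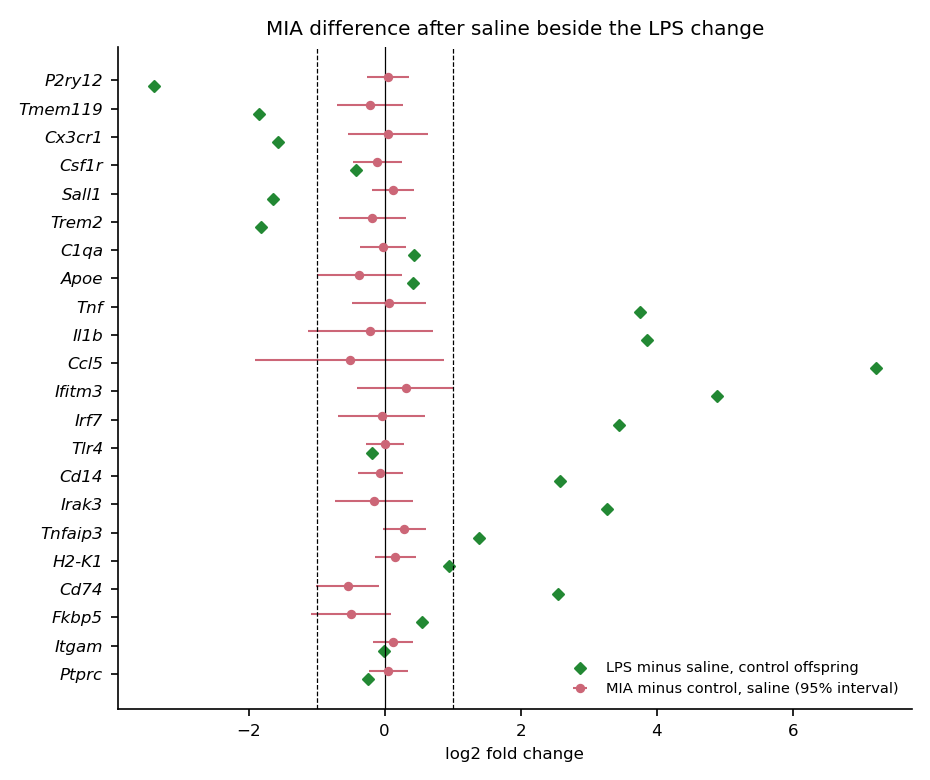
Log2 fold change of MIA against control after saline with its 95% interval (red) for 22 genes, and of LPS against saline in control offspring (green diamonds, point value only), both from the same fit and both using the control saline libraries. P2ry12 is at 0.05 for MIA and -3.39 for LPS, and Tnf at 0.06 and 3.76; dashed lines mark 2-fold.

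Phagocytic and complement genes gave medians slightly below 0. Of 16 complement genes 4 were above 0 (median -0.06), and of 22 phagocytic receptors and bridging factors 5 were (median -0.08). None had an unadjusted p under 0.05 in edgeR. C1qa, a subunit of the complement initiator C1q, ran from 1241 to 1699 CPM (median 1407) in controls and was at 1375, 1434, 1166, 1612 and 1468 CPM in MIA libraries, a difference of -0.02 (-0.36 to 0.32). Mertk, a receptor for dying cells and synaptic material, differed by -0.01 (-0.23 to 0.21) and the complement receptor C3ar1 by -0.04 (-0.34 to 0.26). Trem2, the lipid receptor needed for the disease-associated state, ran from 168 to 443 CPM (median 280) in controls and was at 339, 336, 178, 222 and 213 CPM in MIA libraries (-0.18, -0.67 to 0.31). Apoe, a lipid carrier of that state, ran from 144 to 371 CPM (median 172) and was at 226, 95.9, 122, 168 and 203 CPM (-0.37, -0.99 to 0.25). Disease-associated and lysosomal genes as a list had a median of -0.03, with 0 of 24 at an unadjusted p under 0.05.

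Among antigen presentation genes, 3 of class II presentation had an unadjusted p under 0.05, lower in MIA, and none passed the test. H2-Aa, a class II chain, ran from 0.134 to 4.78 CPM (median 0.856) in controls and was at 0.263, 0, 0, 0.482 and 0 CPM in MIA libraries (-3.22, -4.99 to -1.46, unadjusted p = 0.000938, adjusted p = 1). H2-Eb1, another chain, ran from 0.0668 to 5.71 CPM and reached at most 0.688 CPM in MIA libraries (unadjusted p = 0.0188). Cd74, the invariant chain that loads class II, ran from 14.4 to 37.9 CPM (median 18.0) and was at 12.3, 16.4, 9.65, 14.2 and 18.9 CPM (-0.54, or 0.686-fold with an interval of 0.499 to 0.944, unadjusted p = 0.0226). H2-Ab1, the partner of H2-Aa, differed by -0.86 (-1.90 to 0.17). Control replicate 5 was the highest library at these 4 genes, at 4.78, 5.71, 37.9 and 10.1 CPM, and also had the highest border-associated macrophage gene Cbr2, at 6.24 CPM. Without that library the differences were -2.31 for H2-Aa, -0.93 for H2-Eb1, -0.28 for Cd74 and -0.12 for H2-Ab1. The part of such cells in the class II values was not tested. The class I gene H2-K1 differed by 0.16 (-0.14 to 0.46). Over the 20 genes 3 had an unadjusted p under 0.05, all lower, and the median was 0.00.

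Immediate early and dissociation stress genes had the largest median of the 20 biology lists, at 0.35, with 24 of 26 above 0 against 48.1% of all genes. None passed, and an unadjusted p under 0.05 was found for 2, Jun and the heat shock co-chaperone Dnaja1. The AP-1 subunit Jun ran from 513 to 880 CPM (median 686) in controls and was at 796, 1173, 1101, 1093 and 821 CPM in MIA libraries (0.55, 0.14 to 0.95, unadjusted p = 0.00981, adjusted p = 1). MIA replicates 2, 3 and 4 were above all controls at Jun. Fos, its partner, ran from 283 to 502 CPM (median 385) and was at 466.5, 787, 417, 434 and 376 CPM (0.35, -0.13 to 0.82). Egr1, an early activity gene, ran from 445 to 789 CPM and was at 676, 1037, 640, 654 and 577 CPM (0.29, -0.10 to 0.68). MIA replicate 2 was the highest of all 11 libraries at Fos, Jun and Egr1, and without it the list median was 0.20. The near-identical heat shock genes Hspa1a and Hspa1b differed by 0.55 (-0.12 to 1.22) and 0.67 (-0.06 to 1.41), and reads shared between them make the split uncertain. Microglia switch on these genes during enzymatic dissociation, and whether handling differed between the groups was not tested.

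Mitochondrially encoded genes had a median of 0.29, with 14 of 15 above 0, and 2 had an unadjusted p under 0.05. The cytochrome oxidase subunit mt-Co2 ran from 311 to 486 CPM (median 371) in controls and was at 450, 671, 439, 525 and 498 CPM in MIA libraries (0.43, 0.10 to 0.76, unadjusted p = 0.0133). The other was mt-Nd3, a complex I subunit (1.25, 0.22 to 2.29). The share of counts in all mitochondrially encoded genes had a group difference with an exact permutation p of 0.225, and the list median was 0.14 without MIA replicate 2. Nuclear genes of oxidative phosphorylation had a median of 0.06 with all 28 intervals inside 2-fold, and 1, Ndufa1, had an unadjusted p under 0.05. Ribosomal protein genes were all above 0 (26 of 26, median 0.10), with 0 at an unadjusted p under 0.05, and their median was 0.02 without MIA replicate 2 and 0.23 without control replicate 5. Glycolysis genes had a median of -0.03, and Gapdh differed by -0.06 (-0.39 to 0.26).

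Genes of neuron-microglia signalling gave a median of 0.01, with 27 of 33 intervals inside 2-fold. The ATP-degrading enzyme Entpd1 differed by -0.16 (-0.49 to 0.16), the uridine nucleotide receptor P2ry6 by -0.18 (-0.50 to 0.15) and the TGF-beta receptor Tgfbr1 by -0.01 (-0.29 to 0.26). Adora2a, an adenosine receptor also made by striatal neurons, was the 1 gene of the list with an unadjusted p under 0.05, at 0 to 0.339 CPM in controls and 0.701, 0.643, 0.338, 0.344 and 0.466 CPM in MIA libraries. Igf1, a growth factor, was the lowest member at -0.78 (-1.88 to 0.31).

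Chromatin modifiers, of interest as carriers of a lasting change, gave a median of 0.02 with 27 of 28 intervals inside 2-fold. The DNA methyltransferase Dnmt3a differed by 0.06 (-0.18 to 0.31), the H3K27 demethylase Kdm6b by 0.07 (-0.37 to 0.51) and the H3K27 methyltransferase Ezh2 by -0.08 (-0.49 to 0.33). The deacetylases Sirt1 (0.35, 0.00 to 0.70) and Hdac2 (-0.45, -0.87 to -0.03) were the 2 members with an unadjusted p under 0.05. Glucocorticoid-responsive genes had a median of -0.01, and the glucocorticoid receptor gene Nr3c1 differed by -0.06 (-0.30 to 0.19). Fkbp5, a chaperone of that receptor, ran from 88.8 to 227 CPM (median 128) in controls and was at 44.2, 50.5, 139, 112 and 139 CPM in MIA libraries (-0.49, -1.08 to 0.10). MIA replicates 1 and 2, which share the second ID number, were below all controls at Fkbp5. Clock genes had a median of -0.06, and Arntl, which encodes BMAL1, differed by -0.02 (-0.33 to 0.28). Of 17 cell cycle genes, Top2a, the topoisomerase of dividing cells, had an unadjusted p under 0.05, at 1.87 to 2.94 CPM in controls and 0.351, 0.562, 0.473, 1.45 and 2.06 CPM in MIA libraries. The proliferation marker Mki67 lay the other way at 0.33 (-0.22 to 0.88).

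**Figure D4:**
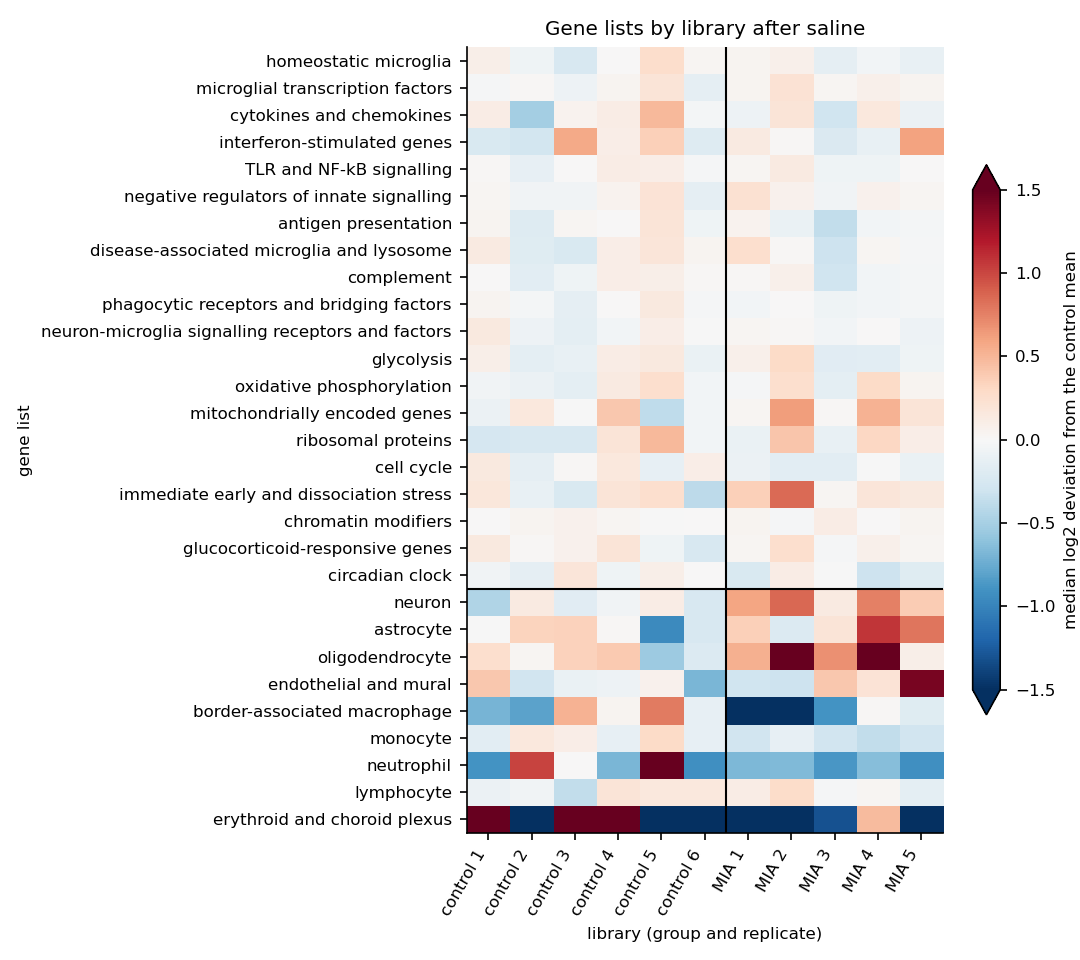
Colour gives, for each gene list (rows) in each saline library (columns), the median over members of the log2 CPM minus the control mean; cell type lists are below the horizontal line and MIA libraries right of the vertical line. MIA replicate 2 is high for immediate early genes, and control replicates 1, 3 and 4, the libraries with most Hbb-bs, are dark red in the bottom row.

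Genes of other brain cells lay at low levels, and those of oligodendrocytes were higher in some MIA libraries. In bulk RNA, fewer cells of a type and less RNA per cell cannot be told apart. Of 12 oligodendrocyte markers 7 could be tested, all 7 above 0 with a median of 0.94 (0.49 without MIA replicate 4), and 3 had an unadjusted p under 0.05. Cldn11, a tight junction protein of myelin, ran from 0 to 0.998 CPM (median 0.218) in controls and was at 1.49, 1.53, 0.878, 1.31 and 0.466 CPM in MIA libraries (1.68, 0.25 to 3.11, unadjusted p = 0.0234, adjusted p = 1). Mog, a myelin surface protein, was at most 0.625 CPM in controls and at 0.175, 0.964, 0.945, 0.757 and 0.266 CPM in MIA libraries, while Mbp differed by 0.04 (-0.26 to 0.34). The summed markers were 41.9 to 58.2 CPM in controls and 41.7 to 86.2 CPM in MIA libraries. Neuronal markers summed to 6.23 to 9.85 and 7.72 to 14.6 CPM, with 8 of 8 tested above 0 and a median of 0.23 (0.11 without control replicate 1, 0.44 without control replicate 2 and 0.75 by limma-voom with the second ID number as a random block). Astrocyte markers, of which Slc1a3 held 80.4%, summed to 158 to 313 and 163 to 288 CPM.

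Markers of border-associated macrophages, which line vessels and meninges, lay lower in some MIA libraries, 9 of 9 below 0 with a median of -1.24. The list median lay at -2.51, -1.86, -0.90, 0.01 and -0.18 from the control mean in MIA replicates 1 to 5 (log2 scale). Control libraries ran from -0.80 to 0.78. MIA replicates 1 and 2 share the second ID number. None of the markers passed, and Pf4, F13a1 and Cbr2 had an unadjusted p under 0.05. F13a1, a coagulation factor subunit of these cells, ran from 3.81 to 12.8 CPM (median 6.01) in controls and was at 0.701, 1.37, 2.90, 5.51 and 4.80 CPM in MIA libraries (-1.24, -2.31 to -0.17, unadjusted p = 0.0258). The haemoglobin receptor Cd163 ran from 1.19 to 2.56 CPM and was at 0, 0.241, 1.01, 0.964 and 1.20 CPM. The mannose receptor Mrc1, the most abundant of the list, overlapped more, at 12.1 to 28.3 CPM and 13.1, 15.7, 16.9, 21.5 and 20.5 CPM. Dab2, an endocytic adaptor made by such macrophages, was not on the marker list but among the 20 named genes of smallest p. It ran from 10.5 to 20.3 CPM (median 13.6) and was at 6.66, 6.35, 9.86, 10.1 and 12.5 CPM (-0.67, -1.07 to -0.27, unadjusted p = 0.00204, adjusted p = 1). Between LPS and saline in control offspring Dab2 differed by 2.96 ± 0.19 (SE) on the log2 scale. The summed markers were 28.8 to 63.5 CPM in controls and 21.4 to 41.1 CPM in MIA libraries. In the MIA library titled excluded they were 49.6 CPM.

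Neutrophil granule genes had counts in some control libraries and almost none in MIA libraries. S100a9, an alarmin of neutrophils, had counts of 118, 31 and 38 in control replicates 2, 3 and 5 and 0 in the other 3 controls and all 5 MIA libraries. Over the groups that is at least 46.9-fold higher in controls, against a floor of 3 counts over a group (0.0453 CPM in MIA), a bound that covers counting error only. The edgeR adjusted p was 1 and the DESeq2 adjusted p 0.0419. Lcn2, a siderophore-binding protein of neutrophils and reactive cells, had 2, 42, 23, 2, 19 and 14 counts in control replicates 1 to 6 and 0 counts in all MIA libraries, at least 25.6-fold higher in controls. Its groups did not overlap, and the adjusted p was 1 in edgeR and 0.000491 in DESeq2. Lcn2 was not on the marker list. Its mean log2 CPM over the fitted libraries, those after LPS included, was 7.18, against a mean of 1.14 CPM in saline controls. Which cells made it was not tested. The granule protein Ltf was also at 0 counts in all MIA libraries, against 61 counts over the controls. Of the 12 neutrophil markers Retnlg, Mmp8 and Elane had 0 counts in all 11 libraries. Csf3r, which microglia also express, held 98.1% of the summed level, and the other markers summed to 0.168 to 19.98 CPM in controls and 0.191 to 0.310 CPM in MIA libraries.

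Haemoglobin RNA was also carried by single libraries. Hbb-bs was at 14.2, 8.69 and 5.30 CPM in control replicates 1, 3 and 4 and at most 0.117 CPM in the other 3 controls, and MIA libraries were at 0, 0.241, 0.0675, 1.51 and 0 CPM. Its close copy Hbb-bt shares reads with it, so the split between them is uncertain. With those 3 control libraries left out, an alternative chosen after seeing the data, edgeR again called 0 genes. Of the 14 lymphocyte markers, Cd3e, Cd3g, Trac, Nkg7 and Ms4a1 had 0 counts in all 11 libraries. The list summed to 68.4 to 97.4 CPM in controls and 64.7 to 105 CPM in MIA libraries, of which Ighm held 87.3%. Without Ighm the sums were 9.29 to 12.7 CPM and 8.85 to 11.5 CPM. Monocyte markers summed to 4.37 to 7.35 CPM in controls and 3.74 to 7.95 CPM in MIA libraries.

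**Figure D5:**
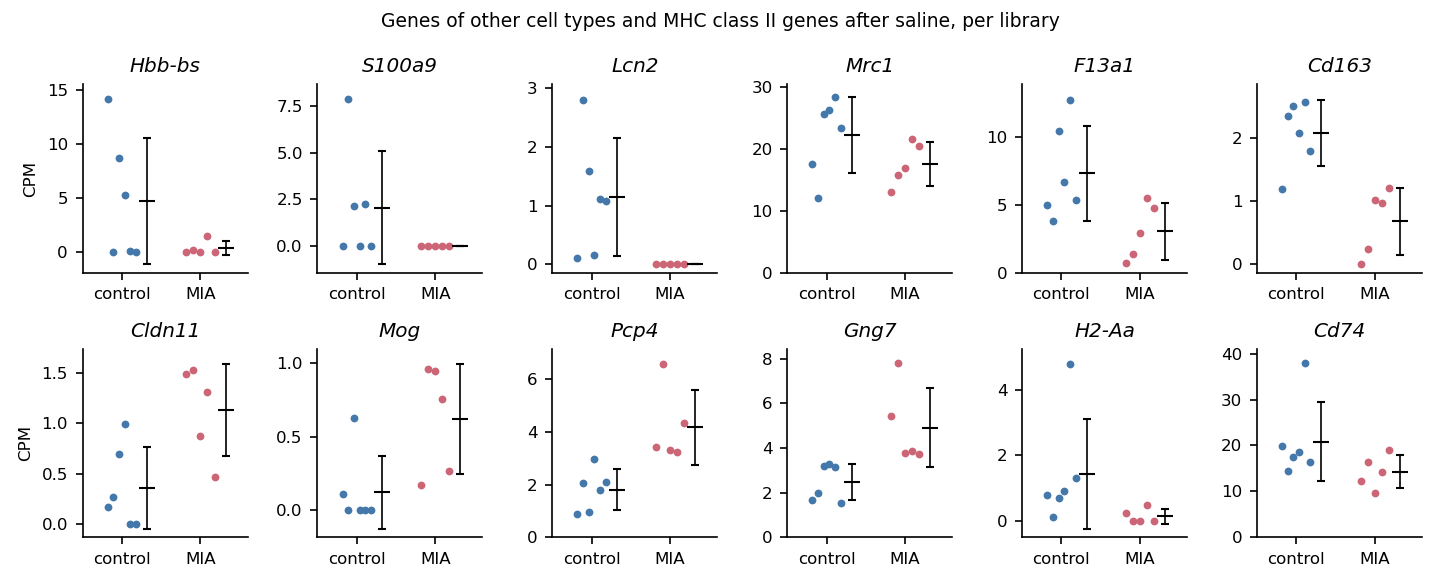
TMM-scaled CPM (vertical) of 12 genes of other cell types and of class II presentation in each control (blue, n = 6) and MIA (red, n = 5) library after saline, with mean and SD. S100a9 and Lcn2 have 0 counts in every MIA library; Pcp4 and Gng7 do not overlap between groups, and H2-Aa reaches 4.78 CPM in 1 control library.

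Among the genes of smallest p, Igfbp6, a binding protein of insulin-like growth factors, came first. It had 0 counts in all 6 control libraries and 8, 0, 4, 6 and 2 counts in MIA libraries, at least 8.86-fold higher in MIA (adjusted p = 0.698 in edgeR and 0.0144 in DESeq2). The same gene differed by 8.09 ± 0.84 (SE) on the log2 scale between LPS and saline in control offspring, a fitted value against 0 counts. Cxcl9, a chemokine induced by interferon gamma, also had 0 counts in controls and 10 counts over the MIA libraries. It differed by 7.50 ± 0.92 (SE) between LPS and saline in control offspring. Both genes passed the filter on low counts through the LPS libraries. Pcp4, a calmodulin-binding peptide of neurons, ran from 0.903 to 2.99 CPM (median 1.94) in controls and was at 3.42, 6.59, 3.31, 3.24 and 4.33 CPM in MIA libraries (1.21, 0.56 to 1.86, unadjusted p = 0.000729, adjusted p = 1). Every MIA library was above every control library, as also for Gng7, a G protein subunit abundant in striatal neurons, at 1.55 to 3.30 CPM and 5.43, 7.79, 3.78, 3.85 and 3.73 CPM. Cntn2, an axonal adhesion protein, and Tubb4a, a tubulin of oligodendrocytes and neurons, differed by 2.37 (0.98 to 3.77) and 1.15 (0.46 to 1.85).

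A few better-expressed genes were among the 59 without overlap between the groups, with small differences. Slain2, a regulator of microtubule growth, ran from 28.6 to 38.7 CPM (median 31.5) in controls and was at 24.6, 22.2, 26.3, 27.5 and 24.8 CPM in MIA libraries (-0.36, -0.60 to -0.13, unadjusted p = 0.00389). Clip2, another microtubule-binding protein, ran from 24.9 to 32.5 CPM (median 29.7) and was at 34.4, 35.4, 44.4, 40.6 and 41.1 CPM (0.42, 0.12 to 0.72, unadjusted p = 0.00749). Trpc4ap, a ubiquitin ligase adaptor, ran from 91.5 to 120 CPM and was at 87.9, 85.2, 76.3, 89.3 and 83.7 CPM (-0.27, -0.53 to -0.02). Hyls1, a ciliary protein, overlapped. It ran from 2.71 to 7.00 CPM (median 5.01) and was at 1.14, 2.25, 2.97, 2.48 and 3.06 CPM (-1.05, -1.60 to -0.49, unadjusted p = 0.000626), with 3 MIA libraries below all controls. Each of these 4 genes had an adjusted p of 1. Chd3, a chromatin remodeller, ran from 12.2 to 22.7 CPM (median 14.1) in controls and was at 9.38, 9.88, 7.22, 8.33 and 12.9 CPM in MIA libraries (-0.70, -1.13 to -0.28). Enpp2, the enzyme autotaxin of choroid plexus and oligodendrocytes, ran from 0.0583 to 1.15 CPM and was at 1.31, 1.53, 1.15, 2.00 and 2.40 CPM (2.00, 0.71 to 3.29). Zbtb42 and Cetn4 did not overlap either, with differences of 2.71 and 1.98 and no library above 1.23 CPM. Between LPS and saline in control offspring they differed by 5.51 ± 0.67 and 2.69 ± 0.57 (SE). The other named genes of smallest p were Apob (-1.58), Rcan2 (1.74), Prpf4 (-0.56), Dph5 (-0.53), Rhbdd1 (-0.46), Zfp672 (-0.46) and Uhrf1bp1l (-0.39). Clip2, Trpc4ap, Gng7, Lcn2 and the pseudogene Gm14303 were named after their values were seen.

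Of the 6 genes called by DESeq2, S100a9, Gm45837 and Gm20458 had counts in 3, 1 and 1 of the 11 libraries. Gm45837 had 112 counts in control replicate 3, and Gm20458 had 105 in control replicate 5. Gm20458 was not among the genes tested by edgeR. The others were Igfbp6, Lcn2 and Gm14303, a processed pseudogene with counts in 10 libraries. Gm14303 was at 0 to 0.852 CPM in controls and at 1.05, 3.62, 2.43, 2.00 and 1.93 CPM in MIA libraries. Its groups did not overlap, and its adjusted p was 0.698 in edgeR and 0.00956 in DESeq2.

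The MIA difference after saline was set beside that after LPS in the same fit, with 3 of the 4 MIA LPS libraries in the batch of the others. The MIA LPS library of batch 2 adds nothing to these differences, since the batch term fits it exactly. After LPS 0 genes passed in edgeR and 825 had an unadjusted p under 0.05. The test of the difference between the MIA effects after LPS and after saline called 0 genes (0%), with 491 at an unadjusted p under 0.05. For Tlr4 the MIA difference was 0.01 ± 0.13 (SE) after saline and -0.55 ± 0.17 after LPS, a difference of differences of -0.56 ± 0.21 (SE, adjusted p = 1.00). For Tnf the values were 0.06 ± 0.26 and 0.34 ± 0.30, for Cd14 -0.06 ± 0.16 and 0.30 ± 0.19, and for P2ry12 0.05 ± 0.15 and 0.11 ± 0.18. For scale, LPS against saline in control offspring gave 3.76 ± 0.28 for Tnf, 2.59 ± 0.17 for Cd14, 7.22 ± 0.47 for Ccl5 and -3.39 ± 0.17 for P2ry12, each with an adjusted p of at most 5.87e-10. These comparisons share the control saline libraries. The interval of the MIA difference after saline excluded changes of that size for each of these 4 genes.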

How the data were processed

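Polyadenylated RNA of sorted striatal microglia was sequenced after a Smart-Seq2-type library preparation, per the labels' protocols. The table deposited by the authors gave estimated counts without normalization, 55487 genes by 21 libraries. The submitters' processing notes name RSEM, STAR and DESeq2. Build and annotation: not given in the sources used here. Values that were not whole made up 6.27%, and all were rounded. Symbols were matched to Ensembl identifiers through GENCODE M21 for 55227 of them. Values of close copies and of antisense genes are uncertain, since neither strand use nor the sharing of reads is stated.

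The test was the quasi-likelihood test of edgeR 4.0.16 in R 4.3.3 (TMM, low-count filter with minimum count 10 and minimum total 15, robust fit) on 20 libraries with 1 mean per group plus batch, 15 residual degrees of freedom. Batch 2 held 1 LPS library, which the batch term fits exactly. Intervals used SE = |log2 fold change| / square root of F. DESeq2 1.42.0 and limma 3.58.1 were alternatives. Library pairs of a group differed beyond sampling noise (chi-square per degree of freedom at least 9.58 over 25 pairs). Depth limits precision for genes of few counts, and read counts carry no molecular identifiers.

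Members and gene lists were chosen with earlier results of these data known. Named genes were the 20 of smallest p (leaving out Gm-numbered, Rik, accession-named genes and pseudogenes), the highest and lowest member of each biology list, 23 fixed genes, cell type markers whose groups do not overlap, and, named after their values were seen, the markers of other cells and any further list members. Some of these genes are not reported here. The script was tested on simulated data.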

Additional observations from a re-analysis of the deposited data

Results flagged for a closer look

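Within a group, 29 of 306 sets of values had a highest or lowest library that lay far from the rest of the group by Dixon's criterion, which chance alone meets in about 1 in 20. Of these, 7 concerned control replicate 5. It was high at H2-Aa (4.78 CPM), H2-Ab1 (10.1 CPM), H2-Eb1 (5.71 CPM), Cd74 (37.9 CPM), Ccl5 (2.21 CPM) and Cbr2 (6.24 CPM), and low at Ptprc (238 CPM).

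In the other control libraries, replicate 1 was high at C3 (0.395 CPM) and Adora2a (0.339 CPM) and low at Mbp (11.5 CPM). Replicate 2 was high at S100a9 (7.89 CPM). Replicate 3 was high at Oas3 (0.764 CPM), Zbtb16 (12.6 CPM) and Mog (0.625 CPM) and low at Mertk (446 CPM). Replicate 4 was high at Tnip3 (0.154 CPM), Gpnmb (0.0768 CPM), C3ar1 (281 CPM) and Gm37651 (0.614 CPM).

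In the MIA libraries, replicate 1 was high at Cx3cr1 (4363 CPM) and S100a8 (0.263 CPM) and low at Cfp (0.0877 CPM). Replicate 2 was high at the immediate early genes Fos (787 CPM) and Egr1 (1037 CPM). Replicate 4 was high at mt-Nd4l (1.72 CPM), Hbb-bs (1.51 CPM), Cbr2 (2.68 CPM) and H2-Eb1 (0.688 CPM), and replicate 5 at Oas3 (0.0666 CPM). Several of these are single counts or a few counts of weakly expressed genes.

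The library titled excluded, an MIA library used only in an alternative, held neuronal markers at 12.9 CPM in sum and monocyte markers at 8.32 CPM, above the highest control library (9.85 and 7.35 CPM). The other MIA libraries reached 14.6 and 7.95 CPM, so its neuronal sum lay within their range.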

How the results depend on the processing

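Of 25 alternatives to the saline comparison, 24 called 0 genes. DESeq2 called 6, of which 1, S100a9, was in the gene lists. Leaving out each library gave 0 calls each time, 332 to 459 genes at an unadjusted p under 0.05, a smallest adjusted p of 0.0800 (without control replicate 4) and 10347 to 10611 intervals inside 2-fold. With the 3 haemoglobin-rich control libraries left out that number was 9555. Unadjusted counts were 1373 without the filter on low counts and 860 by limma-voom with sample weights, against 415. The test of the difference between the MIA effects called 0 genes in 27 of 31 alternatives. It called 1 (Gm12191) by limma-voom with the second number of the library ID as a random block and 1 by limma-voom without weights, and 0 to 2 with single libraries left out: Gm12191 without control saline replicate 4, and Lpar5 and Gm15801 without MIA LPS replicate 1. The cause was not tested. Omitting the haemoglobin-rich libraries and limma-voom without weights were chosen after seeing the data.

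The second ID number had a consensus correlation of 0.0839 in the 20 fitted libraries and 0.193 in the 11 saline libraries alone (limma-voom). With it as a random block in the fit of 20 libraries, the saline comparison had 0 calls and 422 genes at an unadjusted p under 0.05. The intervals inside 2-fold numbered 10824. With saline libraries of 1 second ID number summed these numbers were 0, 359 and 10692.

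With the replicate number as a block, 0 genes were called and 388 had an unadjusted p under 0.05. The numbers did not pair the samples: same-numbered libraries correlated at -0.0920 to 0.170 over 5 pairs, and 2 MIA libraries correlated best with their own number.

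Oas3 turned from -2.49 to 1.39 without the haemoglobin-rich libraries, and leaving out single libraries gave -3.88 to 1.40. Tsc22d3 turned from -0.05 to 0.40 without the haemoglobin-rich libraries. In some setting, 34 of 142 named differences changed sign, the others all within 1 SE of 0 in both fits. The cell cycle median was -0.12, and 0.01 without MIA replicate 4 and 0.02 without the haemoglobin-rich libraries. The glucocorticoid-responsive median was -0.01, and 0.00 with upper quartile scaling and 0.17 without the haemoglobin-rich libraries.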
